A study of Mus musculus with 12 samples.

Results

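Transcripts of the enzymes that make and use glutathione, and of those that supply NADPH to them, were followed in mouse lung after paraquat (PQ), a herbicide. The group comprised every gene whose symbol begins with Gsta, Gstm, Gsto, Gstp, Gstt, Mgst or Gpx and a number, plus 17 named genes of glutathione synthesis, recycling, the pentose phosphate pathway, the thioredoxin system and their regulators, and it held 47 of the 20774 genes listed. Members were chosen by symbol, with earlier results of these data known. The 12 libraries came from whole lung of wild-type C57BL/6J mice, labelled as 8 weeks old, and fell into 4 groups of 3: mice given saline and labelled 1w (control 1w), mice given PQ once into the trachea and labelled 1w (PQ 1w), and the same pair labelled 4w (control 4w, PQ 4w). The time labels were read as weeks. The dose, the sex and whether each library was 1 animal were not given in the sources used here, so p-values reflect the spread between libraries, which may be technical.

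Glutathione is a tripeptide that carries a reducing thiol. Cells import cystine, make glutathione in a pair of ligase steps, spend it in peroxidases and transferases, and return the oxidised form to the reduced one with NADPH, which the pentose phosphate pathway supplies. Paraquat takes electrons from NADPH-dependent reductases and passes them to oxygen, so NADPH and glutathione are drawn on in its toxicity, of which the lung is the main target. Many of these genes are textbook targets of NRF2 (encoded by Nfe2l2), a transcription factor that binds antioxidant response elements and is held back by KEAP1.

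RefSeq promoters (GRCm38.p6) were found for 41 of the members, and the 250 bases before each start were searched on both strands for a pair of spellings of the antioxidant response element. The first, TGACNNNGC, lay in 9 of the 41 members (22%) and in 11.5% of all 27025 genes with a promoter. The second, TGAGTCAGC, lay in 3 members (7.32%) and in 0.407% of all genes, and it contains the AP-1 motif TGAGTCA. Either lay in 12 members (29.3%) against 11.8% of all genes and 14.2% of the genes whose expression was tested below. Some genes have several promoters. Counted by promoter, either lay in 22.4% of the 58 of the members and in 10.5% of all 32851. In the comparison of PQ with control at 1w described below, 5 of these 12 rose (G6pdx, Gclm, Gstm5, Srxn1 and Txnrd1), 6 fell (Ggt1, Gsta3, Gstm7, Gstp2, Mgst1 and Nfe2l2) and Gstp1 did not pass, so members with the same letters moved in opposite directions. A match is a description of the letters and was not tested as a bound site.

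The windows below show 3 members that rose and 3 that fell at 1w, each with 30 bases on either side of the match, read 5′ to 3′ in the direction of the gene, with the match in capitals. In Gclm and Txnrd1 the match is on the other strand, so the capitals show its reverse complement. Gclm is on the plus strand (chr3:122245393-122245461), the match ending 126 bases before the start.
Gclm: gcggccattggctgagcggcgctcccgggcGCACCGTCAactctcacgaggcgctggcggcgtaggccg
Txnrd1 is on the plus strand (chr10:82859084-82859152), 84 bases before one of its 3 listed starts.
Txnrd1: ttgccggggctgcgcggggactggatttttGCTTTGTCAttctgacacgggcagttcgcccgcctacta
Srxn1 is on the plus strand (chr2:152105449-152105517), 37 bases before the start, and has the AP-1-like spelling.
Srxn1: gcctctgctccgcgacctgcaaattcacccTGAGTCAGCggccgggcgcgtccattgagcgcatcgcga
Gsta3, which fell, is on the plus strand (chr1:21240434-21240502), 113 bases before the start.
Gsta3: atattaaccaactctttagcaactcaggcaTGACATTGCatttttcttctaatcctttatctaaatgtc
Gstp2, which fell, is on the minus strand (chr19:4042272-4042340), 81 bases before the start, and has the same 9 letters as Srxn1.
Gstp2: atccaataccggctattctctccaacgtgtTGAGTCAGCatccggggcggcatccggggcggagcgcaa
Ggt1, which fell, is on the plus strand (chr10:75571447-75571515), 75 bases before one of its 4 listed starts.
Ggt1: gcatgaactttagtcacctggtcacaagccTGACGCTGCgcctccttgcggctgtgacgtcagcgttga

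Library totals were 17220978 to 18559809 expected counts, and levels are given as CPM, counts scaled to a common library total (counts divided by the library's total, times 1000000). Effects are log2 ratios ± SE from an edgeR quasi-likelihood fit over 15921 genes, with n = 3 libraries a group; a gene rose or fell where its Benjamini-Hochberg adjusted p over all genes was under 0.05. Tests also used TMM scaling factors, which were 0.974 to 1.057. Markers of lung epithelium were present in every library (surfactant and other alveolar type 2 transcripts, led by Sftpc and Abca3, summed to 17244 to 19176 CPM after PQ at 1w and 27876 to 33865 in its control). Replicate 3 of PQ 4w stood apart: its counts differed from those of the other PQ 4w libraries by a chi-square per degree of freedom of 30.76 and 32.86, against 7.12 to 15.43 within all other pairs of a group, and its 10 club cell markers (Scgb1a1 and Cyp2f2 first) summed to 28806 CPM against 47452 and 57633. The calls of the members that fell at 4w, and some other 4w results, are therefore also given without it.

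At 1w, the cystine transporter gene Slc7a11, the oxidative pentose phosphate genes, the thioredoxin system and most peroxidases were higher after PQ. Both enzymes of glutathione breakdown in the group were lower, and more transferases fell than rose. Of the 44 members with enough counts to test, 16 rose (36.4%, against 25.9% of all genes tested), 13 fell (29.5%, against 22.9%) and 15 did not pass. The median log2 effect of the members was 0.09, beside 0.005 for all genes. In all 29 that passed, the 3 PQ values lay wholly above or wholly below the 3 control values. The same was not counted over all genes that passed, so this cannot be read as particular to the members. The other 3 members, Gpx6, Gstt4 and the pseudogene Gpx2-ps1, stayed below 0.23 CPM in every library and were not tested.

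**Figure D1:**
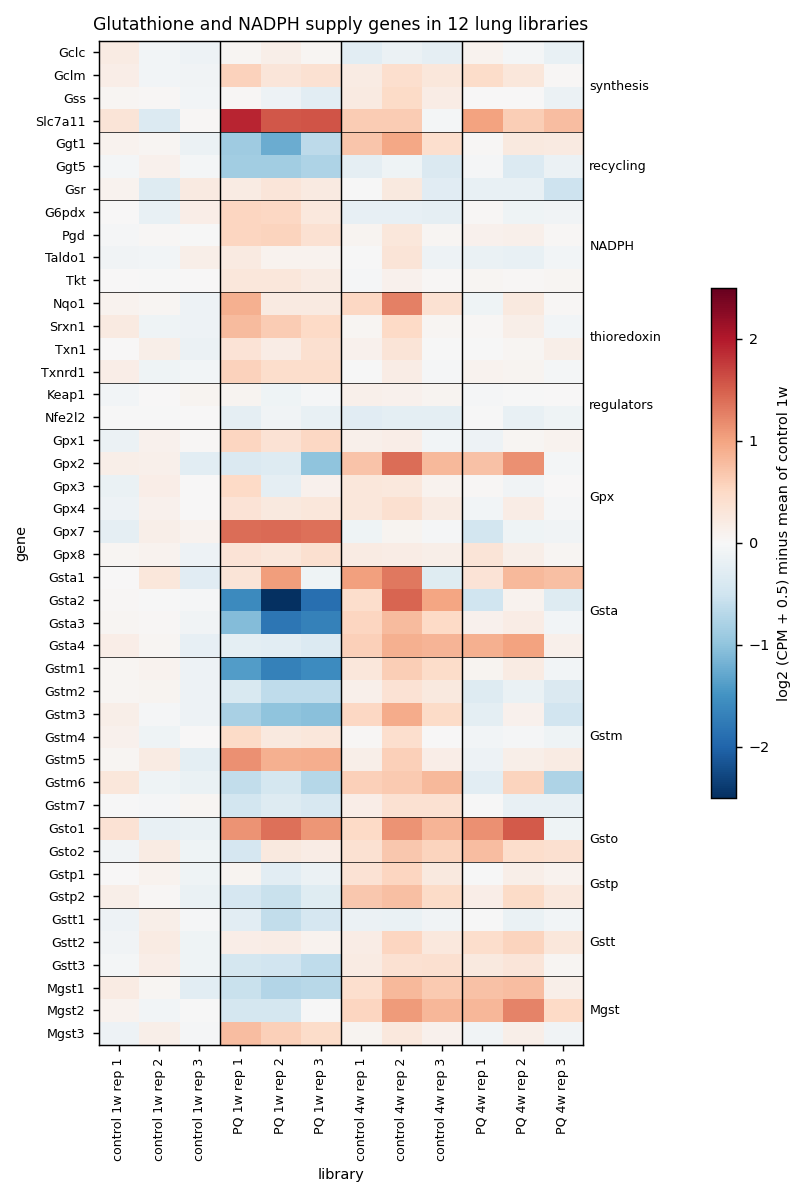
Level of the 44 tested members (rows, grouped by role) in each of the 12 libraries (columns), as log2 (CPM + 0.5) minus the mean of the 3 control 1w libraries, with red higher and blue lower. The PQ 1w columns hold both the reddest rows, such as Slc7a11 and Gpx7, and the bluest, such as Gsta2, Gsta3 and Gstm1.

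Measured per transcript length with the authors' FPKM, which alone can be compared between genes, the group spanned a wide range in control 1w. Gpx3, the secreted plasma peroxidase, was highest at a mean of 983 ± 107 (SD) FPKM, followed by Gstm1 at 354 ± 26 and by Gpx4 at 229 ± 17.7, whose spread overlaps that of Gstp1 at 229 ± 15.5. There were 9 members above 100 FPKM and 7 at or below 1, among them the cystine transporter Slc7a11 at 0.243 ± 0.0651 FPKM. The members that moved most at 1w therefore include both abundant and scarce transcripts.

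Slc7a11 and the regulatory ligase subunit rose, and the catalytic subunit did not pass. Slc7a11, the light chain of the cystine/glutamate exchanger, was at 2.93, 1.65 and 2.27 CPM in control 1w, 9.68, 7.51 and 7.58 in PQ 1w, 3.76, 3.72 and 2.14 in control 4w and 5.0, 3.70 and 4.15 in PQ 4w. All 3 PQ 1w libraries lay above every other library. Slc7a11 rose 3.61-fold at 1w (log2 1.85 ± 0.24, adjusted p = 6.32e-05), and at 4w its effect was log2 0.35 ± 0.24, adjusted p = 0.382. Slc3a2, the heavy chain from the list of other glutathione handling genes, was lower in PQ 1w (226 to 254 CPM) than in control 1w (314 to 345). Gclm, the modifier subunit of glutamate-cysteine ligase, was at 36.7, 31.05 and 30.9 CPM in control 1w, 49.4, 40.7 and 42.8 in PQ 1w, 37.9, 44.3 and 39.9 in control 4w and 45.4, 39.9 and 33.4 in PQ 4w. The groups did not overlap at 1w and did at 4w. Gclm rose 1.34-fold at 1w (log2 0.42 ± 0.11, adjusted p = 0.0089). Gclc, the catalytic subunit of that ligase, ranged over 225 to 283 CPM in control 1w and 253 to 272 in PQ 1w (log2 0.06 ± 0.09, adjusted p = 0.606). Gss, glutathione synthetase, was at 34.2, 33.9 and 31.7 CPM in control 1w, 33.8, 30.5 and 27.5 in PQ 1w, 38.99, 46.7 and 38.1 in control 4w and 33.6, 33.6 and 29.99 in PQ 4w. It did not pass at 1w (log2 -0.13 ± 0.10, adjusted p = 0.281) and fell 1.34-fold at 4w (log2 -0.42 ± 0.09, adjusted p = 0.0154), where the PQ values lay below all control values. Without PQ 4w replicate 3 the Gss effect at 4w was log2 -0.37 ± 0.10 (adjusted p = 0.0357).

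Both gamma-glutamyl enzymes fell at 1w, beside 22.9% of all genes. Ggt1, the gamma-glutamyltransferase that splits extracellular glutathione, was at 2.52, 2.44 and 2.08 CPM in control 1w, 1.02, 0.702 and 1.31 in PQ 1w, 4.11, 5.08 and 3.31 in control 4w and 2.38, 2.86 and 2.80 in PQ 4w. It fell 2.33-fold at 1w (log2 -1.22 ± 0.25, adjusted p = 0.0015), and its 4w values were also all below control but missed the threshold (log2 -0.70 ± 0.22, adjusted p = 0.054). Ggt5, a related enzyme that acts on leukotriene C4 and lies next to Ggt1 on chromosome 10, was at 14.6, 16.5 and 14.6 CPM in control 1w, 8.08, 8.04 and 8.72 in PQ 1w, 12.96, 14.04 and 11.8 in control 4w and 14.9, 11.9 and 13.7 in PQ 4w. PQ 1w was the low group, and the 4w groups overlapped. Ggt5 fell 1.85-fold at 1w (log2 -0.89 ± 0.11, adjusted p = 3.7e-05) and did not pass at 4w (log2 -0.01 ± 0.11). Gsr, glutathione reductase, did not pass at either time (log2 0.22 ± 0.15 and log2 -0.36 ± 0.15). Gsr was at 79.4, 59.6 and 87.6 CPM in control 1w and 73.97, 88.5 and 60.8 in control 4w. The summed CPM of 10 neutrophil markers (Ly6g and S100a8 first) in the same libraries was 303, 189.7 and 440.0 and 359, 605 and 144, in the same order as Gsr within both groups. In PQ 1w, Gsr was at 86.5, 92.4 and 87.2 CPM with marker sums of 179.9, 115 and 188, in PQ 4w at 65.4, 65.4 and 52.1 with 103, 107 and 151; no neutrophil marker was at 0 in all libraries, and the part of these cells in the Gsr values was not tested.

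Of the 4 pentose phosphate genes, 3 rose at 1w, beside 25.9% of all genes. G6pdx, glucose-6-phosphate dehydrogenase and the first NADPH-yielding step, was at 55.7, 48.9 and 62.4 CPM in control 1w, 80.7, 79.1 and 67.03 in PQ 1w, 48.2, 47.9 and 47.3 in control 4w and 56.6, 51.7 and 52.2 in PQ 4w. It rose 1.35-fold (log2 0.43 ± 0.09, adjusted p = 0.00192). Pgd, the next NADPH-yielding dehydrogenase, was at 138, 144 and 140.0 CPM in control 1w, 205, 206 and 183 in PQ 1w, 147, 170.1 and 145 in control 4w and 152, 152 and 143 in PQ 4w. PQ 1w lay above all 9 other libraries. Pgd rose 1.40-fold (log2 0.49 ± 0.07, adjusted p = 0.000166). Tkt, transketolase of the non-oxidative branch, was at 155, 152 and 154 CPM in control 1w, 188, 187 and 178 in PQ 1w, 150.4, 166 and 157 in control 4w and 159, 157 and 159 in PQ 4w. It rose 1.19-fold (log2 0.25 ± 0.05, adjusted p = 0.0016), a small change over tight replicates. Taldo1, transaldolase, was at 123, 124 and 144 CPM in control 1w, 153, 137 and 138 in PQ 1w, 129, 161 and 119 in control 4w and 115, 115 and 123 in PQ 4w. Control and PQ overlapped at 1w, and it did not pass (log2 0.12 ± 0.10, adjusted p = 0.341). None of the 4 passed at 4w, where effects ran from -0.28 (Taldo1) to 0.09 (G6pdx). Together the 4 genes summed to 469 to 499.6 CPM in control 1w, 565 to 626 in PQ 1w, 467 to 545 in control 4w and 476 to 483 in PQ 4w.

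In the thioredoxin arm, all 3 genes of the core system rose at 1w, beside 25.9% of all genes. Txn1, thioredoxin, was at 167, 184 and 149 CPM in control 1w, 211, 189 and 220.3 in PQ 1w, 179, 207 and 164 in control 4w and 164, 173 and 183 in PQ 4w. It rose 1.23-fold (log2 0.30 ± 0.10, adjusted p = 0.0239), a call that was lost without control 1w replicate 1, control 1w replicate 3, PQ 1w replicate 1 or PQ 1w replicate 3. Txnrd1, the NADPH-dependent reductase of thioredoxin, was at 114, 94.8 and 97.05 CPM in control 1w, 151, 139 and 137 in PQ 1w, 101, 116 and 99.5 in control 4w and 109, 106 and 97.9 in PQ 4w. The 3 PQ 1w values were the highest of the 12. Txnrd1 rose 1.39-fold (log2 0.47 ± 0.08, adjusted p = 0.000454). Srxn1, sulfiredoxin, which restores over-oxidised peroxiredoxins, was at 36.3, 28.8 and 28.4 CPM in control 1w, 54.2, 48.3 and 44.03 in PQ 1w, 32.2, 43.7 and 32.2 in control 4w and 31.7, 34.4 and 29.3 in PQ 4w. It rose 1.56-fold (log2 0.64 ± 0.13, adjusted p = 0.00164). Nqo1, a quinone reductase and a standard NRF2 target, was at 5.32, 5.15 and 4.55 CPM in control 1w, 9.64, 5.88 and 5.89 in PQ 1w, 7.32, 12.7 and 6.62 in control 4w and 4.59, 6.01 and 5.09 in PQ 4w. Replicate 1 of PQ 1w and replicate 2 of control 4w were the high libraries. Nqo1 passed at neither time (log2 0.50 ± 0.26, adjusted p = 0.128 at 1w, log2 -0.83 ± 0.26, adjusted p = 0.0563 at 4w), with PQ above control at 1w and below it at 4w in all libraries.

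Markers of dividing cells and of macrophages were higher in the libraries where the pentose phosphate and thioredoxin genes rose. The 8 proliferation markers (Mki67 and Top2a first) summed to 89.4 to 112 CPM in control 1w, 496 to 575 in PQ 1w, 43.1 to 49.7 in control 4w and 64.4 to 97.9 in PQ 4w, and all 8 rose at 1w. The 10 macrophage markers (Cd68 and Adgre1 first) summed to 416 to 420.1 CPM in control 1w, 1083 to 1298 in PQ 1w, 331 to 373 in control 4w and 685 to 804 in PQ 4w, and 9 of 10 rose at both times. No marker of either list was at 0 in all libraries, and their part in the pentose phosphate, thioredoxin and Slc7a11 values was not tested.

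The regulators moved little. Nfe2l2, which encodes NRF2, was at 191, 191 and 192 CPM in control 1w, 164, 179.7 and 169 in PQ 1w, 158, 161 and 161 in control 4w and 189, 168 and 178 in PQ 4w. Control 1w was the high group at 1w and control 4w the low group at 4w. Nfe2l2 fell 1.13-fold at 1w (log2 -0.17 ± 0.05, adjusted p = 0.0188), and this call was lost when control 1w replicate 3, PQ 1w replicate 1 or PQ 1w replicate 3 was left out. Keap1, which directs NRF2 to degradation, did not pass at 1w (log2 -0.03 ± 0.06) or 4w (log2 -0.18 ± 0.06). NRF2 is controlled mainly at the level of its protein, which was not measured.

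**Figure D2:**
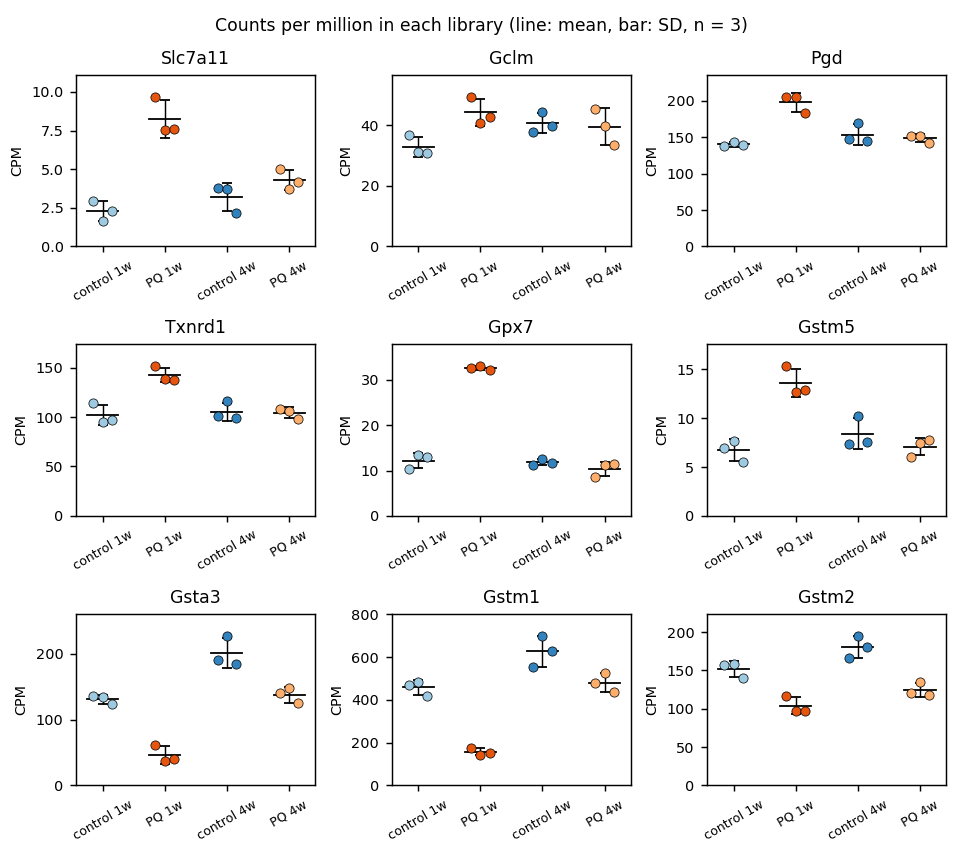
CPM of 9 members, chosen after their values were seen, in each of the 12 libraries (points), with group mean (line) and SD (bar, n = 3). Slc7a11, Gclm, Pgd, Txnrd1, Gpx7 and Gstm5 have their highest group mean in PQ 1w, whereas Gsta3, Gstm1 and Gstm2 are lower in PQ than in control of the same time.

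Among the peroxidases, 4 of the 6 tested rose at 1w and none fell, beside 25.9% of all genes rising and 22.9% falling. Gpx7, a peroxidase of the endoplasmic reticulum that lacks selenocysteine, was at 10.3, 13.4 and 12.9 CPM in control 1w, 32.6, 32.98 and 32.2 in PQ 1w, 11.2, 12.7 and 11.8 in control 4w and 8.65, 11.2 and 11.4 in PQ 4w. PQ 1w stood apart from 9 libraries that all lay below 14 CPM. Gpx7 rose 2.65-fold (log2 1.41 ± 0.13, adjusted p = 3.37e-06), the smallest p of the members that rose. Gpx8, the related membrane-bound peroxidase of the same compartment, was at 38.4, 39.5 and 33.97 CPM in control 1w, 47.5, 45.6 and 49.3 in PQ 1w, 43.2, 42.4 and 41.5 in control 4w and 46.8, 41.3 and 38.3 in PQ 4w. It rose 1.26-fold (log2 0.34 ± 0.08, adjusted p = 0.00395). Gpx1, the cytosolic selenoenzyme, was at 178, 212 and 201 CPM in control 1w, 284, 251 and 282 in PQ 1w, 216, 221 and 187 in control 4w and 180.0, 204 and 208 in PQ 4w. It rose 1.37-fold (log2 0.46 ± 0.09, adjusted p = 0.0017). Gpx4, which reduces lipid hydroperoxides in membranes and guards against ferroptosis, was at 201, 235 and 221 CPM in control 1w, 279, 259 and 268 in PQ 1w, 265, 287 and 251 in control 4w and 209.6, 248 and 216 in PQ 4w. PQ lay above control at 1w and below it at 4w. Gpx4 rose 1.21-fold at 1w (log2 0.28 ± 0.09, adjusted p = 0.019; lost without control 1w replicate 1 or PQ 1w replicate 1) and fell 1.25-fold at 4w (log2 -0.32 ± 0.09, adjusted p = 0.033; adjusted p = 0.0712 without PQ 4w replicate 3). Of the 50-base windows of its annotated transcripts, 34.7% also occur in the pseudogene Gpx4-ps2. The deposited Gpx4 counts were whole numbers in all 12 libraries, so no split of reads was visible. The effect of the shared windows on its counts was not tested. Gpx3, the most abundant, did not pass at 1w (log2 0.14 ± 0.15) or 4w (log2 -0.30 ± 0.15), nor did the epithelial Gpx2 (log2 -0.57 ± 0.30 and log2 -0.38 ± 0.28).

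The fibroblast marker sum was higher and the red cell marker sum lower in PQ 1w. The 10 fibroblast markers (Col1a1 and Pdgfra first) summed to 3289 to 3429 CPM in control 1w, 11708 to 13204 in PQ 1w, 2421 to 2632 in control 4w and 2866 to 3115 in PQ 4w, and 6 of 10 rose and 2 fell at 1w. Col1a1 was at 608 to 645 CPM in control 1w and 3600 to 4388 in PQ 1w. Pdgfra did not follow the sum, at 467, 364 and 542 CPM in control 1w and 402, 299 and 313 in PQ 1w. The 10 erythroid markers (Alas2 and Hba-a1 first) summed to 3619 to 6078 CPM in control 1w and 729.9 to 2029.7 in PQ 1w, where 7 of 10 fell. No marker of either list was at 0 in all libraries, and their part in the Gpx7, Gpx8 and Gpx1 results was not tested. In bulk lung, a change in the number of cells of a type and a change in RNA per cell cannot be told apart.

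The cytosolic transferases, which attach glutathione to reactive compounds, took up less of the libraries after PQ at 1w, but not every gene fell. The 19 genes summed to 1103 to 1252 CPM in control 1w and 776 to 881 in PQ 1w, and to 1487 to 1822 in control 4w and 1145 to 1493 in PQ 4w. Of the 18 tested, 9 fell (22.9% of all genes did), 3 rose (25.9% of all genes did) and 6 did not pass at 1w.

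In the alpha class, the genes that passed fell. Gsta3, known in club and liver cells, was at 136, 134 and 123 CPM in control 1w, 61.7, 36.98 and 40.2 in PQ 1w, 191, 227 and 185 in control 4w and 141, 148 and 125 in PQ 4w. PQ lay below control at both times. Gsta3 fell 2.85-fold at 1w (log2 -1.51 ± 0.16, adjusted p = 1.36e-05) and 1.53-fold at 4w (log2 -0.61 ± 0.16, adjusted p = 0.0267; adjusted p = 0.0566 without PQ 4w replicate 3). Gsta2 was scarce, at 3.14, 3.04 and 3.0 CPM in control 1w, 0.674, 0 and 0.462 in PQ 1w, 4.35, 9.29 and 6.59 in control 4w and 2.01, 3.29 and 2.33 in PQ 4w. Over the 3 libraries it had 21 counts in PQ 1w against 166 in control 1w. Gsta2 fell at 1w (log2 -3.0 ± 0.54, adjusted p = 0.000671) and at 4w (log2 -1.46 ± 0.40, adjusted p = 0.0359). Of its 50-base transcript windows, 49.8% occur in other genes, mostly Gsta1, so reads of the 2 genes may be exchanged. Gsta4, which acts on the lipid aldehyde 4-hydroxynonenal, did not pass at 1w (log2 -0.31 ± 0.19) or 4w (log2 -0.12 ± 0.18). Without PQ 4w replicate 3 the Gsta4 effect at 4w was log2 0.10 ± 0.11, which also did not pass.

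The mu class is a gene cluster on chromosome 3, and its genes did not move together. In order along the chromosome from 107895854 to 108045179 they are Gstm5, Gstm7, Gstm6, Gstm3, Gstm2, Gstm1 and Gstm4. At 1w the genes at both ends, Gstm5 and Gstm4, rose, Gstm7, Gstm3, Gstm2 and Gstm1 between them fell, and Gstm6 did not pass (log2 -0.71 ± 0.32). Gstm1, the most abundant transferase by FPKM in control 1w, was at 471, 485 and 420.1 CPM in control 1w, 175, 142 and 154 in PQ 1w, 555, 699 and 629 in control 4w and 479, 527 and 436 in PQ 4w. It fell 2.94-fold at 1w (log2 -1.56 ± 0.11, adjusted p = 5.66e-07), the smallest p of all members, and 1.37-fold at 4w (log2 -0.45 ± 0.11, adjusted p = 0.0183). Gstm2 was at 157, 159 and 139.5 CPM in control 1w, 117, 97.3 and 97.6 in PQ 1w, 166, 195 and 181 in control 4w and 121, 134 and 117 in PQ 4w. The PQ values were below all control values of the same time. Gstm2 fell 1.47-fold at 1w (log2 -0.56 ± 0.10, adjusted p = 0.000472) and 1.53-fold at 4w (log2 -0.61 ± 0.09, adjusted p = 0.00292). Gstm7 was at 4.87, 4.87 and 5.10 CPM in control 1w, 3.45, 3.83 and 3.65 in PQ 1w, 5.58, 6.64 and 6.62 in control 4w and 4.94, 4.30 and 4.29 in PQ 4w. It fell 1.37-fold at 1w (log2 -0.45 ± 0.13, adjusted p = 0.0101) and 1.46-fold at 4w (log2 -0.55 ± 0.12, adjusted p = 0.0146). Gstm3 was near the limit of detection, at 0.651, 0.511 and 0.455 CPM in control 1w, 0.0905, 0.0173 and 0 in PQ 1w, 0.975, 1.46 and 0.934 in control 4w and 0.373, 0.62 and 0.246 in PQ 4w. Its 2 counts over the PQ 1w libraries against 29 over control 1w give a rate 14.8 times lower (95% exact interval 3.75 to 128, counting error only; log2 -3.67 ± 0.77, adjusted p = 0.00188 in the fit). Gstm5, at the other end of the cluster, was at 6.93, 7.72 and 5.55 CPM in control 1w, 15.3, 12.7 and 12.9 in PQ 1w, 7.41, 10.3 and 7.60 in control 4w and 6.07, 7.47 and 7.74 in PQ 4w. The 3 PQ 1w values were the highest of the 12. Gstm5 rose 2.01-fold (log2 1.00 ± 0.17, adjusted p = 0.000384). Gstm4 rose 1.26-fold (log2 0.34 ± 0.13, adjusted p = 0.0444), a call that was lost in 9 of the 15 alternative fits, among them those without control 1w replicate 2 or 3 or any one of the PQ 1w libraries. Between 18.9% (Gstm1) and 28.8% (Gstm3) of the 50-base windows of these 2 genes occur in other genes, and none of those of Gstm4 and Gstm5 do. The deposited counts of Gstm4 and Gstm5 were still fractional in some libraries, so some of their reads were divided with other genes. Examples are 157.96 for Gstm4 in control 1w replicate 2 and 123.63 for Gstm5 in control 1w replicate 1.

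The other classes were mixed. Gsto1, an omega-class enzyme that reduces dehydroascorbate, was at 95.9, 65.8 and 67.02 CPM in control 1w, 165, 197 and 163 in PQ 1w, 107, 165 and 136 in control 4w and 166, 219 and 69.8 in PQ 4w. It rose 2.28-fold at 1w (log2 1.19 ± 0.32, adjusted p = 0.00814), and at 4w PQ replicate 3 was low and the groups overlapped (log2 0.10 ± 0.31; log2 0.44 ± 0.19 without that library, adjusted p = 0.143). Within control 1w, control 4w and PQ 4w the order of the libraries in Gsto1 was that of 8 cardiac muscle markers (Myh6 and Actc1 first), which summed to 322, 57.5 and 97.05 CPM in control 1w, 601, 1734 and 1339.8 in control 4w and 639, 1096 and 163 in PQ 4w. In PQ 1w, where Gsto1 was 163 to 197 CPM, those markers summed to 69.6, 247 and 212 CPM, and their part in the Gsto1 values was not tested. Gstp2 fell at 1w (log2 -0.45 ± 0.13, adjusted p = 0.0111; lost without control 1w replicate 1) and 4w (log2 -0.41 ± 0.12, adjusted p = 0.0484; adjusted p = 0.0816 without PQ 4w replicate 3, and lost in 13 of 15 alternative fits), while its near copy Gstp1 did not pass at 1w (log2 -0.12 ± 0.10) and fell at 4w (log2 -0.37 ± 0.10, adjusted p = 0.0303). They share 33.7% of the windows of Gstp1, and 54.3% of those of Gstp2 occur elsewhere, so their split is uncertain. In the theta class Gstt1 (log2 -0.45 ± 0.09, adjusted p = 0.00203) and Gstt3 (log2 -0.54 ± 0.10, adjusted p = 0.000923) fell at 1w, and Gstt2 did not pass (log2 0.13 ± 0.13).

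The microsomal transferases, membrane proteins of which some make leukotriene C4, moved in opposite directions. Mgst1, abundant in lung, was at 216, 194 and 156 CPM in control 1w, 127, 112 and 116 in PQ 1w, 251, 327 and 295 in control 4w and 313, 319 and 208 in PQ 4w. It fell 1.61-fold at 1w (log2 -0.68 ± 0.16, adjusted p = 0.004) and did not pass at 4w (log2 -0.12 ± 0.16). Without PQ 4w replicate 3 the Mgst1 effect at 4w was log2 0.05 ± 0.13, which also did not pass. Mgst3 was at 19.6, 23.6 and 20.99 CPM in control 1w, 36.9, 32.5 and 29.6 in PQ 1w, 22.5, 25.9 and 22.9 in control 4w and 20.1, 23.5 and 20.03 in PQ 4w. PQ 1w was above every other library. Mgst3 rose 1.53-fold (log2 0.62 ± 0.11, adjusted p = 0.000684), and Mgst2 did not pass (log2 -0.33 ± 0.23).

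Airway markers were measured in the same libraries. The 10 club markers summed to 26522 to 36000.0 CPM in control 1w and 6399.9 to 7444 in PQ 1w, with 5 of 10 falling and none rising, beside 22.9% of all genes falling. The club markers summed to 54820.0 to 63542 CPM in control 4w and 47452, 57633 and 28806 in PQ 4w, with 1 of 10 falling and none rising at 4w. The 10 ciliated markers (Foxj1 and Tekt1 first) summed to 635, 673 and 476 CPM in control 1w, 269.8, 331 and 290.0 in PQ 1w, 829, 849 and 958 in control 4w and 1296, 1112 and 613 in PQ 4w, with 2 of 10 falling at 1w and none passing at 4w. At 4w Gsta3, Gstm1 and Gstm2 were lower in PQ. The ciliated sums of PQ 4w replicates 1 and 2 lay above all control 4w sums, and that of replicate 3 lay below them. The club sums of PQ 4w replicates 1 and 3 lay below all control 4w sums, and that of replicate 2 lay among them. In PQ 4w, replicate 3 was the lowest of its group in both lists; of the 8 transferases that fell at 4w it was the lowest in Gsta3, Gstm1, Gstm2, Gstm3 and Gstm7 and not in Gsta2, Gstp1 or Gstp2. No airway marker was at 0 in all libraries, and the part of airway cells in the transferase results was not tested.

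**Figure D3:**
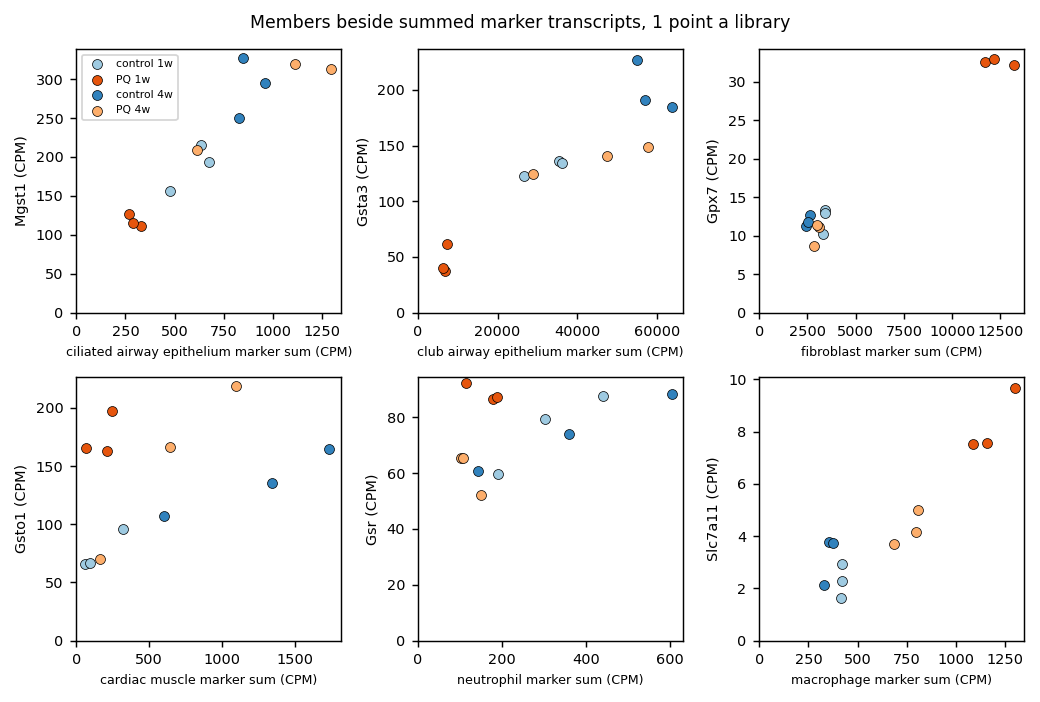
CPM of 6 members (vertical axes), chosen after their values were seen, against the summed CPM of a cell marker list (horizontal axes), 1 point for each of the 12 libraries, coloured by group. Mgst1 is low where ciliated markers are low and Gsta3 where club markers are low, Gpx7 and fibroblast markers are both high in PQ 1w alone, and Gsto1 in PQ 1w is high at low cardiac muscle sums; the libraries share treatment, so the panels show values side by side and no test.

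At 4w, no member rose, and the 10 that fell were 8 transferases, Gss and Gpx4. Of the 44 tested, 0 rose (5.75% of all genes did), with 1w risers such as Slc7a11 at log2 0.35 ± 0.24. By edgeR, 0 members were higher even at an unadjusted p under 0.05, and DESeq2 also called 0 higher. The 10 that fell (22.7%, against 6.39% of all genes) were Gss, Gpx4, Gsta2, Gsta3, Gstm1, Gstm2, Gstm3 (log2 -1.54 ± 0.45, adjusted p = 0.0461), Gstm7, Gstp1 and Gstp2. The median log2 was -0.24, beside 0.004 for all genes. At 4w 7 of the 13 members that fell at 1w fell again. The share of all genes that fell at both times was not counted, so this cannot be read as particular to the members. Gpx4 had risen at 1w, and Gss and Gstp1 had not passed there. Without PQ 4w replicate 3, 6 of the 10 still passed (Gss, Gsta2, Gstm1, Gstm2, Gstm7 and Gstp1). Control 4w replicate 2 had the highest value of the 12 libraries in all 10 genes, Gstm2 among them. Without that library only Gstm2 passed. Of the 10, 3 remained without control 4w replicate 3 or PQ 4w replicate 1, and 4 without control 4w replicate 1. Gstm2 was the only one of the 10 that passed in every alternative fit. In the same libraries the 10 endothelial markers (Pecam1 and Cdh5 first) summed to 5602 to 5812 CPM in control 4w and 3394 to 4414 in PQ 4w, with 9 of 10 falling and 1 rising. The endothelial sums were also lower at 1w, at 5127 to 5870 CPM in control 1w and 3698 to 4173 in PQ 1w, with 8 of 10 falling. The 10 alveolar type 1 markers (Ager and Rtkn2 first) summed to 6764 to 7488 CPM in control 4w and 3752 to 6304 in PQ 4w, with 3 of 10 falling. No marker of either list was at 0 in all libraries, and their part in the results at 1w or 4w was not tested.

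**Figure D4:**
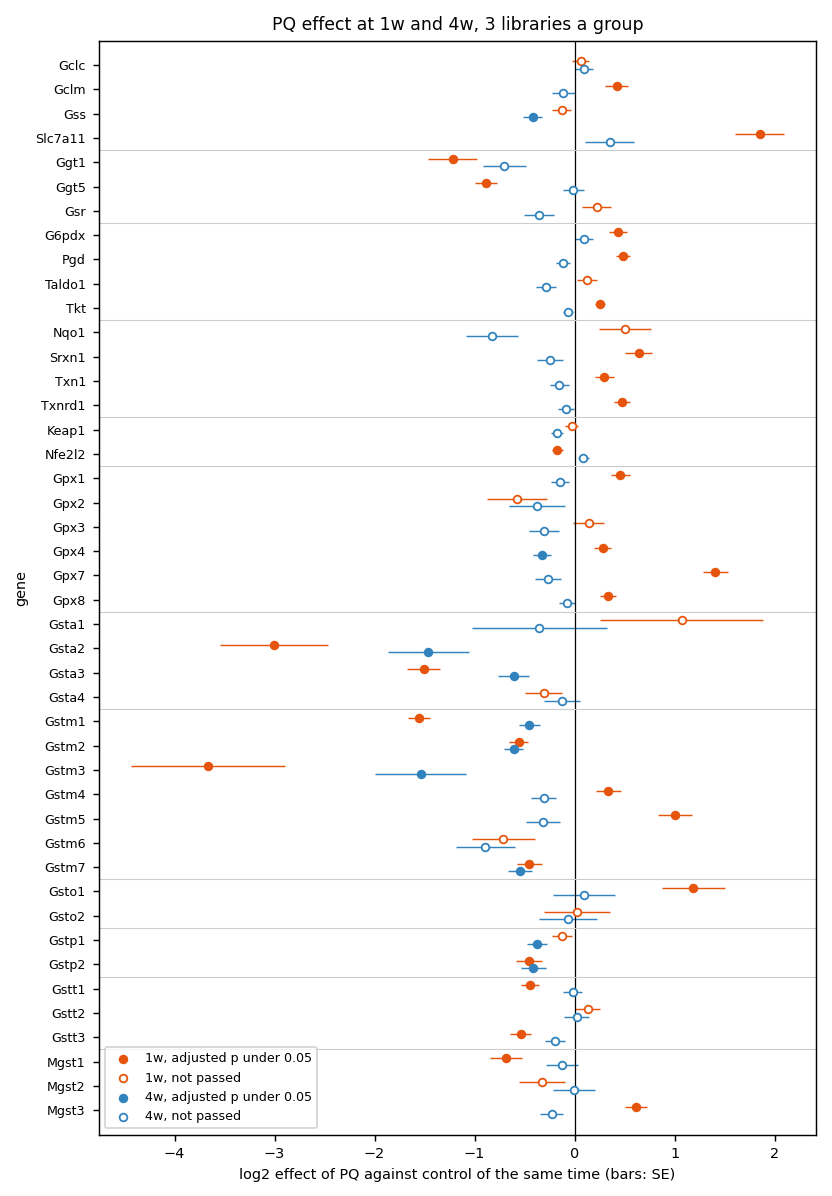
Log2 effect of PQ against control of the same time for each of the 44 tested members, at 1w (orange) and 4w (blue), with SE bars; filled points have an adjusted p under 0.05. Orange points spread from Gstm3 at -3.67 to Slc7a11 at 1.85, and all 10 filled blue points lie left of 0.

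The effects themselves differed between the times for 21 of the 44 members. By the interaction term, 16 members had a lower effect at 4w than at 1w (36.4%, against 17.9% of all genes) and 5 a higher one (11.4%, against 14.1%). The 16 comprise Slc7a11 and Gclm, 4 peroxidases (Gpx1, Gpx4, Gpx7, Gpx8), 3 pentose phosphate genes (Pgd, Taldo1, Tkt), the 4 thioredoxin and quinone reductase genes, and Gstm4, Gstm5 and Mgst3. Nqo1 and Taldo1 are among them though neither passed at a single time, and the Taldo1 call was lost in 17 of 20 alternative fits and that of Txn1 in 10. The 5 were Ggt5, Gsta3, Gstm1, Gstt1 and Nfe2l2. Without PQ 4w replicate 3 all 21 kept their call, and Gsto1, Gstt3 and Mgst1 were called as well. For Gstm2 the difference was log2 -0.05 ± 0.13 (adjusted p = 0.793), so a difference between its effects at the 2 times was not shown.

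Within treated lung, the pentose phosphate genes were lower and several transferases higher at 4w than at 1w. From PQ 1w to PQ 4w, 13 members were higher (29.5%, against 26.7% of all genes) and 16 lower (36.4%, against 27.8%), shares not far from those of all genes. All 4 pentose phosphate genes fell, Pgd the most clearly (log2 -0.48 ± 0.07, adjusted p = 0.000156). Gpx7 fell 3.28-fold (log2 -1.72 ± 0.13, adjusted p = 7.95e-07), and Gsr, which passed in neither comparison with control, fell 1.53-fold (log2 -0.61 ± 0.15, adjusted p = 0.00403). Gstm1 rose 2.92-fold (log2 1.55 ± 0.11, adjusted p = 5.61e-07) and Gsta4 rose 1.94-fold (log2 0.95 ± 0.18, adjusted p = 0.000949). This comparison shares its PQ libraries with those against control.

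The saline groups also differed with time. From control 1w to control 4w, 9 members rose (20.5%, against 5.9% of all genes) and 1, Nfe2l2, fell (log2 -0.27 ± 0.05, adjusted p = 0.0216; 2.27%, against 4.2%). Those that rose were Gpx2 (log2 1.00 ± 0.29, adjusted p = 0.0474), Ggt1, Gsta3 (log2 0.61 ± 0.16, adjusted p = 0.0362), Gsta4, Gstm1 (log2 0.44 ± 0.11, adjusted p = 0.0297), Gstp1, Gstp2, Mgst1 and Mgst2. The PQ 4w values of Gstm1 (436 to 527 CPM) and Gsta3 (125 to 148) lay below control 4w and overlapped control 1w (420.1 to 485 and 123 to 136). Of the club and ciliated markers, 6 of 10 each rose between the saline groups, as did 7 of 8 cardiac muscle markers; their part was not tested. The count of 9 fell to 0 without control 4w replicate 2 or without control 1w replicate 3, and to 1 without control 1w replicate 1 or control 4w replicate 3.

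Related genes outside the group were counted from 4 lists. Of 20 other NADPH sources, 8 rose (25.9% of all genes did) and 3 fell (22.9%) at 1w. Aldh1l2, a mitochondrial folate enzyme that yields NADPH, was at 2.19, 1.66 and 1.37 CPM in control 1w and 8.51, 10.5 and 9.97 in PQ 1w, and rose 5.51-fold (adjusted p = 3.15e-06). Mthfd1l, another mitochondrial folate enzyme, rose 2.60-fold (adjusted p = 2.17e-05) and was still higher at 4w (log2 0.55 ± 0.16, adjusted p = 0.0434), whereas its cytosolic relative Mthfd1 fell at 1w (log2 -0.41 ± 0.06, adjusted p = 0.000211) and 4w (log2 -0.35 ± 0.06, adjusted p = 0.00502). At 4w, 1 of the 20 rose (5.75% of all genes did) and 2 fell (6.39%). The list median at 1w was 0.144, beside 0.005 for all genes.

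Of 29 other glutathione handling genes, 12 rose and 7 fell at 1w (25.9% and 22.9% of all genes), and 2 rose and 4 fell at 4w (5.75% and 6.39%). Anpep, an aminopeptidase that completes the breakdown of glutathione outside cells, fell 2.19-fold at 1w (adjusted p = 4.38e-07) and was at 105 to 111 CPM in control and 46.4 to 53.5 in PQ. Dpep2, a dipeptidase, rose 2.46-fold (adjusted p = 1.56e-06) from 11.4 to 12.2 CPM in control 1w. The more abundant Dpep1 went the other way, at 167 to 198 CPM in control 1w and 47.2 to 76.1 in PQ 1w. Hpgds, a sigma-class transferase that makes prostaglandin D2, rose 3.12-fold at 4w (log2 1.64 ± 0.20, adjusted p = 0.00105). Its values already lay apart at 1w, at 1.91 to 2.66 CPM in control and 7.29 to 10.4 in PQ. Slc1a1, a transporter of glutamate and cysteine, fell 1.33-fold at 4w (log2 -0.41 ± 0.07, adjusted p = 0.00535). It was also lower at 1w, at 25.9 to 28.8 CPM in control and 17.1 to 19.7 in PQ. The part of the macrophage markers given above in the Hpgds and Dpep2 values was not tested.

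Of 16 other thioredoxin genes, 10 rose and 3 fell at 1w (25.9% and 22.9% of all genes), with a list median of 0.318 beside 0.005 for all genes, and 1 rose and 3 fell at 4w (5.75% and 6.39%). Prdx4, the peroxiredoxin of the endoplasmic reticulum, rose 2.43-fold at 1w (adjusted p = 1.79e-07) and 1.29-fold at 4w (adjusted p = 0.0119). Txnip, which binds and inhibits thioredoxin, fell 2.21-fold at 1w (adjusted p = 3.53e-06). Prdx6, a lung peroxiredoxin that uses glutathione, fell at 1w (log2 -0.76 ± 0.09, adjusted p = 2.64e-05) and at 4w (log2 -0.43 ± 0.09, adjusted p = 0.00986), when its level was 1276 to 1382 CPM in control and 949 to 1131 in PQ.

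Of 20 other NRF2 targets and partners, 8 rose and 6 fell at 1w (25.9% and 22.9% of all genes), and 0 rose and 3 fell at 4w (5.75% and 6.39%). Abcc1, Me1 and Prdx1 of this list are also counted in the other lists. Hmox1, haem oxygenase, was at 34.2, 33.3 and 36.99 CPM in control 1w, 319, 200.4 and 175 in PQ 1w, 32.6, 36.3 and 29.6 in control 4w and 44.6, 42.2 and 42.4 in PQ 4w. The 3 PQ 1w libraries were far above the rest, and replicate 1 was the highest of them. Hmox1 rose 6.61-fold at 1w (adjusted p = 4.46e-07) and did not pass at 4w (log2 0.32 ± 0.18). Ftl1, the ferritin light chain, rose 1.67-fold at 1w (adjusted p = 1.45e-05). Ptgr1, a prostaglandin reductase, rose at 1w (log2 0.43 ± 0.10, adjusted p = 0.00269) and fell at 4w (log2 -0.51 ± 0.10, adjusted p = 0.00667). Mafk, a small Maf protein that pairs with NRF2, fell at both times (log2 -0.65 ± 0.11, adjusted p = 0.000382 and log2 -0.41 ± 0.11, adjusted p = 0.0297).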

How the data were processed

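Expected counts per gene and FPKM in 12 lung libraries were made by the authors and deposited in 1 table per library, per the file headers. HISAT and RSEM 1.2.12 with build mm10 are named in the submitters' processing notes; strandedness, annotation release and HISAT's version were not given in the sources used here. The authors' FPKM, scaled to transcript length and depth, served only to order members and in alternatives. RNA integrity numbers were above 7 per the labels' protocols. Of the deposited counts above 0, 69.7% were whole numbers; counts were rounded, and genes that a table did not list were set to 0.

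edgeR 4.0.16 (R 4.3.3) fitted all 12 libraries with 4 group means, TMM factors and filterByExpr (minimum count 10, total 15), leaving 15921 genes and 8 residual degrees of freedom. The threshold was 0.05 on p adjusted by Benjamini-Hochberg over all genes. SE is the absolute log2 effect divided by the square root of F. CPM are unadjusted for TMM. Totals ran from 17220978 to 18559809, and a total limits precision for scarce genes such as Gstm3.

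Members and gene lists were chosen with earlier results of these data known. Named by rule were all members, the 2 genes of each list with the smallest p at each time, and the first 2 markers of each cell list. Slc3a2 and Dpep1 were named besides, as related genes that went the other way. Members other than transferases have 12 values given where they passed at 1w, at 4w or in the difference. So do the 10 transferases with the largest effects. Symbols were matched to the NCBI gene table of GRCm38, promoters to RefSeq, and shared 50-base windows to GENCODE M21 transcripts. Promoters of Gclc, Ggt5, Gpx2-ps1, Gsr, Gsta4 and Gstt2 were not analysed here. Alternatives used DESeq2 1.42.0 and limma 3.58.1; Python 3.11.15 drew the figures.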

Additional observations from a re-analysis of the deposited data

Results flagged for a closer look

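The effect of PQ differed between 1w and 4w by the interaction term of the edgeR fit for 21 members, each given here as the 4w effect minus the 1w effect on the log2 scale. For these 16 the effect was lower at 4w. Gpx7 differed most, by log2 -1.67 ± 0.18 (adjusted p = 8.45e-05), then Slc7a11 by log2 -1.50 ± 0.34 (0.00607), Nqo1 by log2 -1.33 ± 0.37 (0.0158) and Gstm5 by log2 -1.32 ± 0.24 (0.00158). Srxn1 differed by -0.89, Mgst3 by -0.85, Gstm4 by -0.65, and Gpx1, Gpx4 and Pgd by -0.60, -0.60 and -0.60. Smaller differences were those of Txnrd1 (-0.56), Gclm (-0.53), Txn1 (-0.45), Gpx8 (-0.42), Taldo1 (-0.40) and Tkt (-0.32).

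For the other 5 the effect was higher at 4w, that is less negative or, for Nfe2l2, changed from below to above 0. Gstm1 differed by log2 1.10 ± 0.15 (adjusted p = 0.000332), Gsta3 by 0.90, Ggt5 by 0.88, Gstt1 by 0.43 and Nfe2l2 by 0.26. In Gpx4 the effect passed in opposite directions at the 2 times. In Nqo1 the 3 PQ libraries lay above the 3 controls at 1w and below them at 4w, while neither effect passed on its own; control 4w replicate 2, at 12.7 CPM, was its highest library, and the difference was called in all 20 alternatives run. Groups of 3 were too small for a test of single outlying libraries.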

How the results depend on the processing

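Over 99 called effects of members and 1585 alternative values, none reversed, 1405 kept their call and 180 lost it. At 1w, leaving out single libraries gave 13 to 15 members higher and 12 to 13 lower. At 4w it gave 1 (without control 4w replicate 2) to 11 (without PQ 4w replicate 2) lower and 0 higher, and 641 to 2104 genes in all against 1932; 4 or fewer remained without control 4w replicate 1, control 4w replicate 3 or PQ 4w replicate 1. Members lower at 4w numbered 6 with library totals only, 6 with limma on log2(FPKM + 0.1) and 3 with only the groups compared, which called 746 genes. For the difference of effects, leaving out single libraries gave 3 (without PQ 1w replicate 3 or PQ 4w replicate 1) to 7 higher and 13 to 17 lower. Between the saline groups it gave 0 to 5 members higher, 0 to 2 lower and 123 to 1420 genes against 1609, while only the groups compared gave 14 higher and DESeq2 gave 2 lower. The causes were not tested. Where an arm kept 2 libraries, the fit shared 1 spread over all groups.

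Same-numbered libraries did not deviate together (correlations of -0.35 to 0.152), so no pairing by number was seen. With 3 libraries a group, these correlations cannot exclude one. With the replicate block, 15 members rose and 14 fell at 1w (Gstm4 lost, Gpx2 gained), 7 fell at 4w (Gsta2, Gstm3 and Gstp2 lost), the difference lost Taldo1, and the saline comparison lost Ggt1 and gained Gss and Gstt3. Effects of genes near or under 1 CPM, such as Gstm3, Gsta1 and Gsto2, are poorly resolved at this depth. Intervals cover counting error only.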
